A study of Mus musculus with 2 samples.

Results

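The genes that build the synaptonemal complex were followed in single ovarian cells of newborn mice. These are Sycp1, Sycp2, Sycp3, Syce1, Syce2, Syce3 and Tex12, 7 of the 21018 genes present in both deposited count tables, chosen by their symbols. Their levels are given as UMIs of the gene per 10,000 UMIs of the cells, where a UMI (unique molecular identifier) stands for 1 captured RNA molecule. The assay reads 1 end of each molecule, so these levels need no correction for gene length. Germ cells were the barcodes in which Dazl and Figla together reached 5 or more per 10,000 UMIs. Dazl encodes a germ cell RNA-binding protein and Figla an oocyte transcription factor. All other kept barcodes were called somatic.

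The ovaries came from C57BL pups at postnatal day 3, in 2 libraries, 1 per treatment. In the DEHP_MLT group, mothers were gavaged daily with DEHP, a phthalate plasticizer, from E16.5 (an embryonic day) on and were given MLT, melatonin, later the same day. Mothers of the MLT group had DMSO in place of DEHP and the same MLT, so both groups carry melatonin and no group without it is described here. How many pups or ovaries went into a library is not given. The sample titles and the names of the tables attached to them are crossed: the sample titled MLT holds a table named for DEHP_MLT, and the other way round. The titles were followed, and each difference between DEHP_MLT and MLT below would change its direction if the table names were the right ones. With 1 library per group there is no replicate spread and no test. The 95% intervals below are exact counting intervals and cover counting error only.

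The DEHP_MLT library held 747 germ cells among 4819 kept barcodes (15.5%), and the MLT library 309 among 5199 (5.94%). Depth differed: the germ cells had a median of 55987 UMIs in DEHP_MLT and 5990 in MLT, while somatic cells had 12079.5 and 10987.5. The shallowest barcode held 6923 UMIs in DEHP_MLT and 2031 in MLT, and 164 of the MLT germ cells lay below 6923. All 12 germ cell markers were higher in germ than in somatic cells in both libraries, with a summed level of 49.0 against 3.22 per 10,000 in DEHP_MLT and 51.4 against 2.92 in MLT. For Dazl and Figla this direction was fixed by the germ cell rule, so their part is no check of it. They summed to 11.7 per 10,000 in DEHP_MLT germ cells and 11.1 in MLT germ cells. In an unsupervised clustering, 735 of the 747 DEHP_MLT germ cells and 192 of the 309 MLT germ cells fell in clusters named germ cell. Of the rest of the MLT germ cells, 102 fell in unnamed clusters, nearly all in 1 cluster with a median of 3093 UMIs. Of 7 granulosa cell markers, 0 were at 0 in germ cells; their summed level was 2.38 per 10,000 in DEHP_MLT germ cells and 1.92 in MLT germ cells, against 12.0 and 13.0 in somatic cells. Germ cells with 5 or more per 10,000 of them numbered 173 (23.2%) in DEHP_MLT and 110 (35.6%) in MLT, and 4 barcode sequences occurred in both libraries.

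The synaptonemal complex is the protein zipper that joins paired homologous chromosomes along their length in meiotic prophase, where crossovers form. SYCP2 and SYCP3 belong to the axis of each homolog, the lateral element. SYCP1 forms the transverse filaments that bridge the axes, and SYCE1, SYCE2, SYCE3 and TEX12 sit in the central element, where SYCE2 and TEX12 form a complex that polymerises into fibres. In the mouse ovary, oocytes enter meiosis before birth, complete synapsis as fetuses and reach the dictyate arrest around birth, when the complex comes apart and primordial follicles form.

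The promoters of these genes are shown because CpG-rich germline promoters with E2F6-type and E-box motifs are a known class of meiotic promoter. RefSeq promoter windows (GRCm38.p6, 250 bases before to 50 after a start) were found for 7 of 7 genes, in 9 windows. The letters TCCCGC, an E2F6-type site, on either strand were in windows of 4 of the 7 genes, against 22.1% of the 27025 genes in the table. The E-box CACGTG was in 4 of the 7, against 8.09% of genes. The same 4 genes, Sycp1, Sycp3, Syce2 and Tex12, held both, and they are printed below 5′ to 3′ with both motifs in capitals (GCGGGA is TCCCGC on the other strand). No capitalised stretch overlaps another. Sycp1 lies at chr3:102936051-102936350 (minus strand), Sycp3 at chr10:88459337-88459636 (plus), Syce2 (the window of the later start) at chr8:84872008-84872307 (plus) and Tex12 at chr9:50561219-50561518 (minus).
Sycp1: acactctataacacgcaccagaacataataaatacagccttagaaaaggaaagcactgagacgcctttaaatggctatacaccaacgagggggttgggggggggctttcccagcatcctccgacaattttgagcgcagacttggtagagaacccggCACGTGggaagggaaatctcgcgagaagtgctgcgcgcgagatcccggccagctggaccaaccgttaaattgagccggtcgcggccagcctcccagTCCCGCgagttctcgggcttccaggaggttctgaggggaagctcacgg
Sycp3: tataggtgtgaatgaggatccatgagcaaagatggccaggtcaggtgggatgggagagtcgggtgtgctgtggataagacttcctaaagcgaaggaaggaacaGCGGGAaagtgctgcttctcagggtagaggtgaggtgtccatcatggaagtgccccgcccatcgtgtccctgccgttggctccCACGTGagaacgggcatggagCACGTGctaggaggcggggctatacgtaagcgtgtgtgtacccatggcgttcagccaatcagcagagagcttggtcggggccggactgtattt
Syce2: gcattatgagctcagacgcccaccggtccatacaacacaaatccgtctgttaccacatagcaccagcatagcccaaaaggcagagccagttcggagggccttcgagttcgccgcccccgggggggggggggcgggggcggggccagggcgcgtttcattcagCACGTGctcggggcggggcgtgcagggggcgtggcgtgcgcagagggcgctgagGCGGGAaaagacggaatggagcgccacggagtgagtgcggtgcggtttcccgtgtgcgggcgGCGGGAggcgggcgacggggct
Tex12: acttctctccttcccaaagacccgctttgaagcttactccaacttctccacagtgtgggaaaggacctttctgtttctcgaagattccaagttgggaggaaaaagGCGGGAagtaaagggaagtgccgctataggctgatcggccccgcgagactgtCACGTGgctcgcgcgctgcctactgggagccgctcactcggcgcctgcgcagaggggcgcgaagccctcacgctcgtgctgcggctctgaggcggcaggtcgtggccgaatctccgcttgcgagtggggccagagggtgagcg
In Sycp1 the E-box begins at base −94 and the E2F6-type letters at base 3, counted from the start as base 1. Tex12 has the E-box at base −93 and the E2F6-type letters at base −145. Sycp3 carries 2 copies of the E-box, and the Syce2 window carries 2 of the E2F6-type letters. The windows of CpG-rich promoters in general, those with 15 or more CpG, held TCCCGC in 45.4% and CACGTG in 11.3%. The printed windows have 21, 15, 33 and 26 CpG, against a median of 7 over all promoters. They were picked for holding both motifs, each of which contains a CpG. The windows not printed have 10 CpG in Sycp2, 14 in Syce1, 15 and 5 in Syce3, and 19 in the other Syce2 window. The other motifs searched were CNCCTCAG, a STRA8-type motif, in 3 of 7 genes against 9.12% of genes, TGACG, the core of a cAMP response element, in 3 of 7 against 23.0%, and CCAAT in 2 of 7 against 41.1%. The Syce2 match to CNCCTCAG shares bases with an E2F6-type match. The window of Sycp2 held 0 of the 5 motifs. These matches describe letters in a window, and binding was not measured.

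All 7 genes were far higher in germ than in somatic cells, in both libraries. Their summed level was 19.5 per 10,000 (19.4 to 19.6) in germ cells and 1.48 (1.46 to 1.51) in somatic cells of the DEHP_MLT library, a 13.1-fold difference. In the MLT library it was 20.5 (20.2 to 20.8) in germ cells and 1.22 (1.19 to 1.24) in somatic cells, 16.8-fold. A gene is called higher or lower here where the ratio is at least 1.5-fold and its counting interval lies clear of 1. By that rule 7 of 7 members were higher in germ cells in each library, where 32.6% of 17670 genes with 20 or more UMIs were higher in DEHP_MLT and 27.6% of 17193 in MLT. None of the members was called lower, where 40.1% of genes were in DEHP_MLT and 38.8% in MLT. The members' median log2 ratio was 4.10 in DEHP_MLT and 4.45 in MLT, beside −0.16 and −0.30 over all genes.

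The lateral element genes were at opposite ends of the range. Sycp3 was the most abundant member, at 7.96 per 10,000 in germ cells and 0.464 in somatic cells of DEHP_MLT (17.2-fold), and at 9.67 and 0.377 in MLT (25.7-fold). Sycp2, whose protein binds SYCP3 in the axis, was the least abundant, at 0.0918 in germ cells and 0.00586 in somatic cells of DEHP_MLT (419 and 42 UMIs), and at 0.123 and 0.00763 in MLT (116 and 54 UMIs). The Sycp2 transcript was thus captured about 1 time for every 100 Sycp3 UMIs in germ cells (1.15 in DEHP_MLT and 1.27 in MLT). Whether the table's Sycp2 gene model covers the transcript's 3′ end was not tested.

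The transverse filament gene Sycp1 stood at 3.57 per 10,000 in germ cells against 0.170 in somatic cells of DEHP_MLT (log2 4.39) and at 3.62 against 0.155 in MLT (log2 4.54). Among the central element genes Syce2 was the highest, at 4.66 in germ cells and 0.658 in somatic cells of DEHP_MLT and at 3.99 and 0.537 in MLT. Its ratio of germ to somatic cells, 7.08-fold in DEHP_MLT and 7.44-fold in MLT, was the smallest of the 7, and its interval on the log2 scale (2.78 to 2.87 and 2.83 to 2.96) did not meet that of any other member. Syce1 had 1.91 in germ cells and 0.113 in somatic cells of DEHP_MLT, and 2.04 and 0.0934 in MLT. Syce3, the smallest central element protein, had 0.804 and 0.0468 in DEHP_MLT and 0.520 and 0.0215 in MLT. Tex12 had 0.503 and 0.0261 in DEHP_MLT and 0.529 and 0.0270 in MLT. The order of germ cell levels was thus Sycp3, Syce2, Sycp1, Syce1, Syce3, Tex12 and Sycp2 in DEHP_MLT. In MLT it was the same but for Syce3 and Tex12, whose intervals there (0.475 to 0.568 and 0.483 to 0.577) overlap. Sycp3, Syce2 and Sycp1 made up most of the members' germ cell UMIs: 40.9%, 23.9% and 18.3% of them in DEHP_MLT, and 47.2%, 19.5% and 17.7% in MLT.

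**Figure D1:**
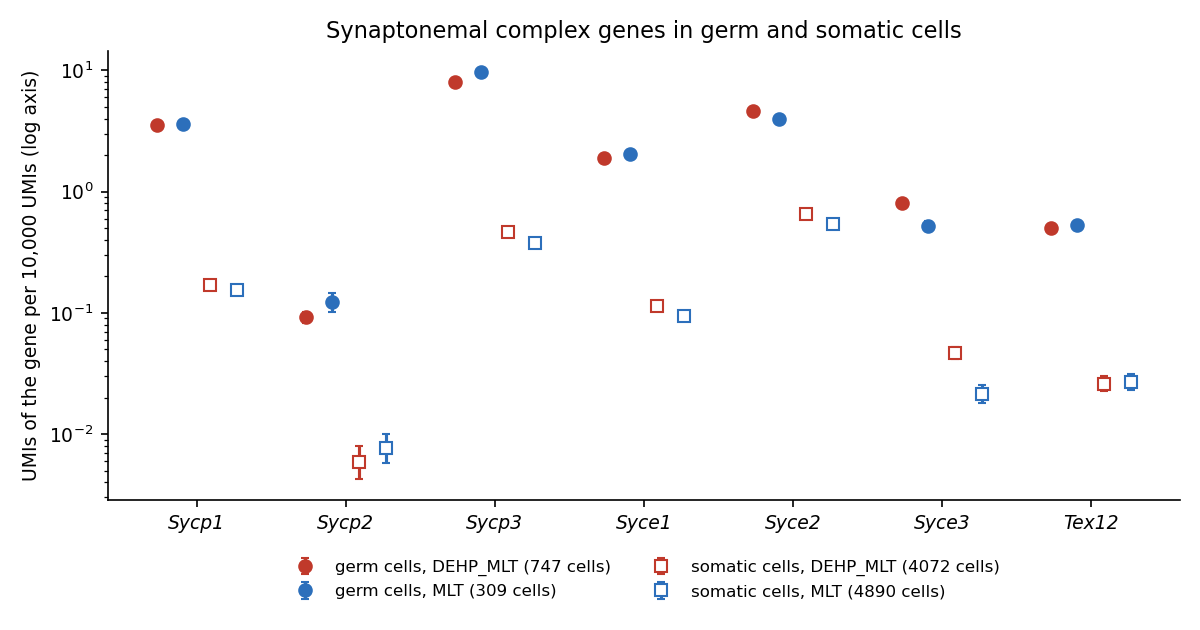
Level of each synaptonemal complex gene, in UMIs per 10,000 UMIs on a log axis, in germ cells (filled circles) and somatic cells (open squares) of the DEHP_MLT library (red) and the MLT library (blue), with exact 95% counting intervals. Each gene is higher in germ cells in both libraries, and Syce2 has the narrowest gap, 4.66 against 0.658 in DEHP_MLT and 3.99 against 0.537 in MLT.

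Sycp1, Sycp3, Syce1, Syce2 and Tex12 each overlap at least 1 other gene on the opposite strand in the GENCODE vM21 annotation, and whether the authors' counting used strand is not given here, so reads of such partners cannot be told apart. The partners are Chpt1 for Sycp3, Gcdh for Syce2, Il18 for Tex12, Gm29799 for Syce1, and Gm42816, Gm33952 and Gm33866 for Sycp1. In germ cells Chpt1 stood at 0.336 per 10,000 in DEHP_MLT and 0.441 in MLT, Gcdh at 0.130 and 0.166, and Il18 at 0.114 and 0.110. All 3 were well below the member they overlap in germ cells. In somatic cells Il18, at 0.0505 in DEHP_MLT and 0.0460 in MLT, was above Tex12 (0.0261 and 0.0270), and Chpt1, at 0.368 and 0.516, was below Sycp3 in DEHP_MLT (0.464) and above it in MLT (0.377). Gcdh, at 0.127 and 0.152, was below Syce2 (0.658 and 0.537). Somatic levels of these members could hold reads of their partners. Sycp2 and Syce3 had no such partner.

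The share of cells with at least 1 UMI depends on depth, so each cell was thinned to 2000 UMIs, which left out 0 cells. Sycp3 was then seen in 77.9% of germ cells (74.8% to 80.8%) and 6.68% of somatic cells of DEHP_MLT, and in 69.6% of germ cells (64.1% to 74.7%) and 9.28% of somatic cells of MLT. Without thinning the germ cell shares were 99.9% in DEHP_MLT and 82.5% in MLT. Stroma cells had 5.09% in DEHP_MLT and 5.07% in MLT after thinning, at median depths of 11409 and 10650 UMIs before it. Germ cells were thus far above stroma cells, and whether stroma cells express the gene was not tested. For Sycp1 the thinned shares were 49.4% of germ cells and 1.91% of stroma cells in DEHP_MLT, and 39.2% and 1.55% in MLT. Syce2 was seen in 56.6% of germ cells and 12.5% of stroma cells in DEHP_MLT, and in 44.7% and 9.39% in MLT, the highest stroma share of the 7 in each library. Sycp2 was near the limit of detection after thinning, in 1.74% of germ cells and 0.0467% of stroma cells in DEHP_MLT and in 1.29% and 0.151% in MLT.

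Within germ cells the genes varied from cell to cell. This was described in the 701 DEHP_MLT and 124 MLT germ cells with 10000 or more UMIs, where a gene at 1 per 10,000 is expected to give at least 1 UMI. Sycp3 had a median over cells of 7.14 per 10,000 in DEHP_MLT, with the 25th and 75th percentiles of cells at 5.29 and 9.81, and of 9.24 in MLT, with 5.78 and 12.5. It was at 0 in 0 of the 701 cells of DEHP_MLT and 1 of the 124 of MLT. Sycp1 had a median of 2.95 in DEHP_MLT (1.83 to 4.59) and 2.91 in MLT (1.71 to 4.87), and reached 33.3 and 38.5 in the highest germ cell of each library. Syce2 was the most even of the abundant members, at 4.42 in DEHP_MLT (3.46 to 5.51) and 3.73 in MLT (2.92 to 5.05). Sycp2 was at 0 in 470 of the 701 cells (67.0%) in DEHP_MLT and 77 of the 124 (62.1%) in MLT, Syce3 in 106 (15.1%) and 28 (22.6%), and Tex12 in 149 (21.3%) and 27 (21.8%).

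**Figure D2:**
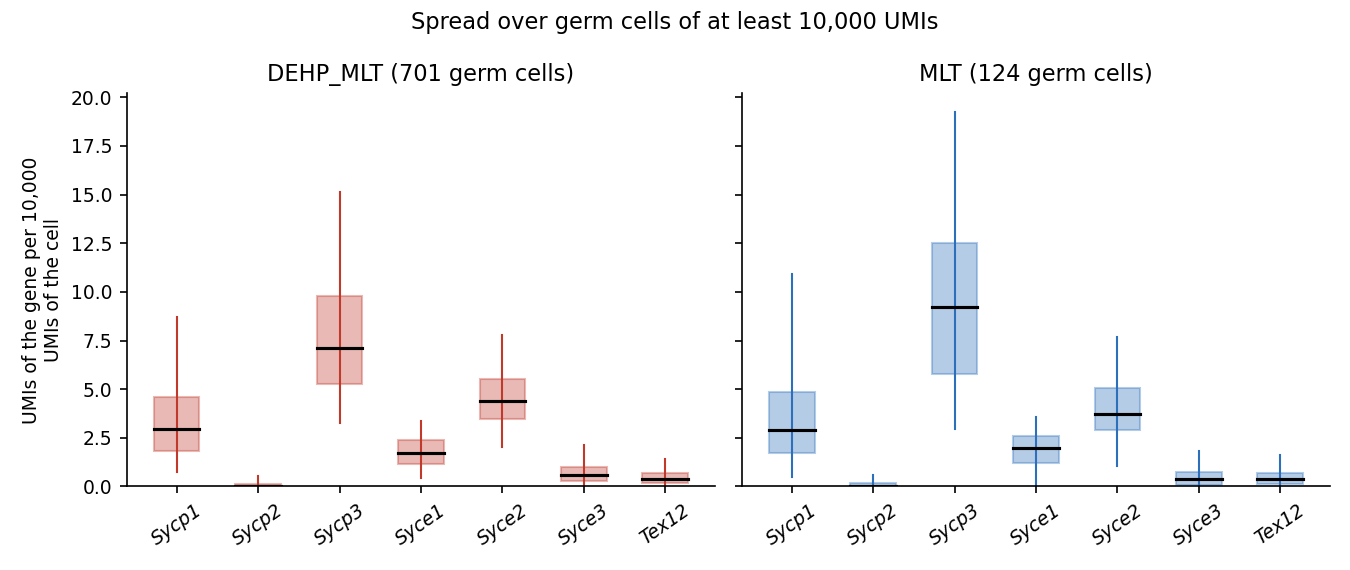
Spread of each gene over germ cells of at least 10000 UMIs, in UMIs of the gene per 10,000 UMIs of the cell, for the DEHP_MLT library (left, 701 cells) and the MLT library (right, 124 cells). Boxes span the 25th to 75th percentile of cells, black lines are medians and thin lines run from the 5th to the 95th percentile; Sycp3 has the highest median in both libraries, 7.14 and 9.24.

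The members went together across single germ cells only loosely. Over the 21 pairs of members, Pearson's r of log2(level + 1) lay between 0.0977 and 0.381 (median 0.264) in the 701 DEHP_MLT cells and between 0.0631 and 0.619 (median 0.344) in the 124 MLT cells. The closest pair was Sycp3 with Syce2 in DEHP_MLT and Sycp1 with Tex12 in MLT. Counting noise in sparse genes lowers such values, and cells of 1 library share its preparation, so they are descriptions. The summed level had r of −0.621 in DEHP_MLT and −0.667 in MLT with the granulosa markers of the same barcode, 0.0514 and 0.137 with log10 UMIs per cell, and 0.626 and 0.617 with Dazl and Figla, the genes of the germ cell rule. The share of granulosa RNA in the barcodes thus moved against the members' levels, and its part in the cell-to-cell spread was not tested. Just inside the rule, at 5 to 7 per 10,000 of Dazl and Figla, the members summed to 13.1 per 10,000 in 97 DEHP_MLT barcodes and 11.7 in 57 MLT barcodes. Just outside it, at 3 to 5, they summed to 7.20 in 74 DEHP_MLT barcodes and 6.36 in 246 MLT barcodes, whose median depth was 24899 UMIs in DEHP_MLT and 2907 in MLT. At 20 or more they reached 31.9 in 35 barcodes and 33.5 in 12.

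The members differed along a ranking of germ cells by oocyte growth genes. Germ cells of 10000 or more UMIs were ranked by the summed level of oocyte growth genes, which encode zona pellucida proteins (Zp1, Zp2, Zp3), secreted factors (Gdf9, Bmp15) and maternal factors such as Ooep, Nlrp5 and Padi6, and were cut into 3 bins of 234, 234 and 233 cells in DEHP_MLT and 42, 41 and 41 in MLT. Sycp1 stood at 4.73, 3.29 and 2.69 per 10,000 in the lowest, middle and highest bin of DEHP_MLT, and at 5.27, 3.11 and 2.52 in those of MLT. Sycp2 stood at 0.150, 0.0642 and 0.0596 in DEHP_MLT and at 0.218, 0.0986 and 0.0695 in MLT. Both were lower where growth genes were higher, Sycp1 by 1.76-fold and 2.09-fold and Sycp2 by 2.52-fold and 3.13-fold between the outer bins of DEHP_MLT and MLT.

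Among the central element genes, Syce3 stood at 1.17, 0.685 and 0.552 per 10,000 in the bins of DEHP_MLT and at 0.826, 0.338 and 0.439 in those of MLT. Its log2 ratio of the highest to the lowest bin was −1.09 (−1.21 to −0.97) in DEHP_MLT and −0.91 (−1.24 to −0.59) in MLT. Tex12 had −0.57 and −0.66. Sycp3, by contrast, had 8.55, 7.53 and 7.79 in DEHP_MLT and 10.2, 9.94 and 9.43 in MLT, a log2 ratio of −0.14 and −0.11. Syce2 had −0.16 and −0.14, and Syce1 −0.32 and −0.21. In both libraries Sycp3 and Syce2 were thus nearly level along the ranking while Sycp1, Sycp2 and Syce3 had ratios from −1.65 to −0.82. The granulosa markers stood at 1.95, 2.95 and 2.20 per 10,000 in the bins of DEHP_MLT and at 1.46, 1.17 and 1.86 in those of MLT. Dazl and Figla, the genes of the germ cell rule, summed to 13.8, 10.4 and 10.8 in DEHP_MLT. In MLT they summed to 12.4, 10.8 and 10.1, so they too were highest in the lowest bin. Their part in these ratios was not tested.

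**Figure D3:**
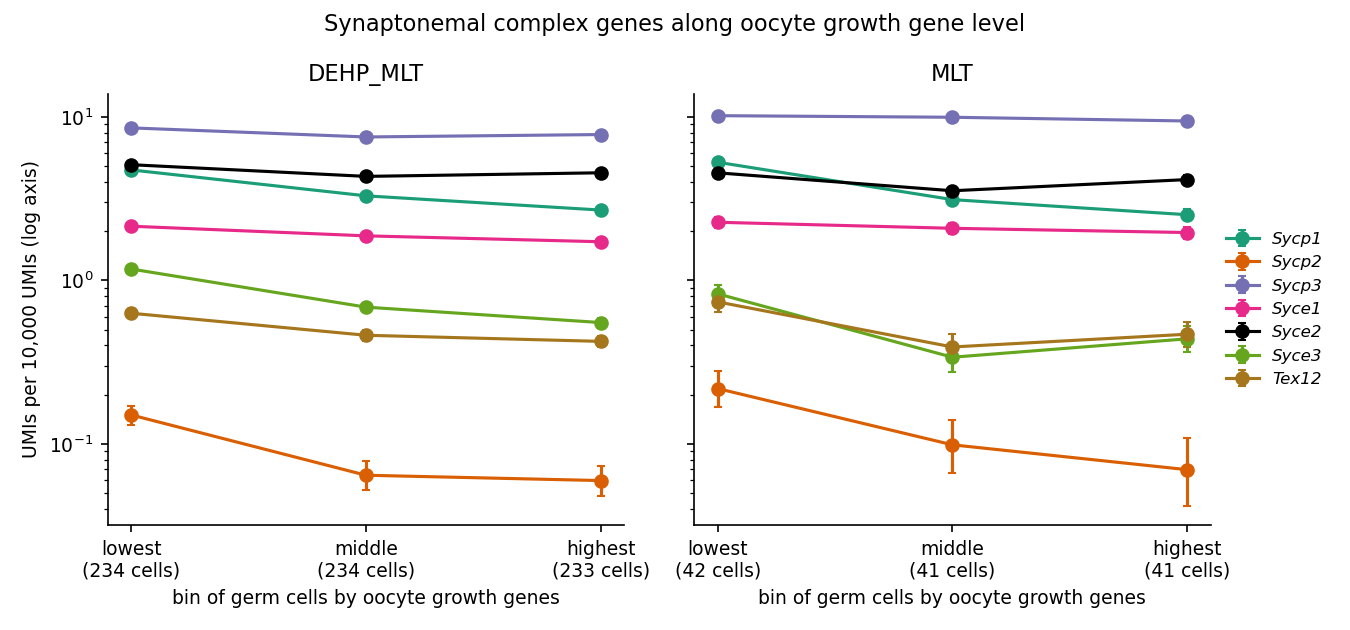
Level of each synaptonemal complex gene, in UMIs per 10,000 UMIs on a log axis, in 3 bins of germ cells ranked by oocyte growth genes, for the DEHP_MLT library (left) and the MLT library (right); bars are exact 95% counting intervals. Sycp1, Sycp2 and Syce3 are lower in the highest than in the lowest bin of both libraries, and Sycp3 runs nearly level, at 8.55, 7.53 and 7.79 in DEHP_MLT.

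A ranking by 4 genes of late prophase germ cells, Tex101, Tsga8, Taf7l and Ly6k, gave the same division. Tex101 and Ly6k encode germ cell surface proteins and Taf7l a germ cell form of a TFIID subunit. Sycp2 had a log2 ratio of highest to lowest bin of 1.88 (1.49 to 2.28) in DEHP_MLT and 2.02 (1.18 to 2.96) in MLT. Sycp1 had 0.85 and 1.16, Syce3 1.25 and 0.62, and Tex12 0.68 and 0.88. Sycp3 had 0.28 and 0.09, Syce1 0.26 and 0.36, and Syce2 0.25 and 0.28. Cells rich in these 4 genes thus had the higher Sycp1, Sycp2, Syce3 and Tex12, while Sycp3, Syce1 and Syce2 had ratios of 0.36 or less. The granulosa markers moved the other way, at 2.52, 2.63 and 1.85 per 10,000 in the lowest, middle and highest bin of DEHP_MLT. In MLT they stood at 1.80, 1.70 and 1.01. Dazl and Figla rose with the ranking, summing to 10.8, 11.1 and 13.4 in DEHP_MLT and 9.67, 10.6 and 12.9 in MLT. Median depth was 61671, 75527 and 50109 UMIs in the lowest, middle and highest bin of DEHP_MLT. In MLT it was 38361.5, 81369 and 83268, so the lowest bin there was the shallowest. The part of depth, of the granulosa markers and of Dazl and Figla in these ratios was not tested. In MLT the 4 genes were at 0 UMIs throughout the lowest bin, so its border with the middle bin is arbitrary.

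Between the libraries the summed germ cell level was nearly the same, 19.5 per 10,000 in DEHP_MLT against 20.5 in MLT, a log2 ratio of −0.07 (−0.09 to −0.05). Syce3 was higher, at 0.804 per 10,000 in DEHP_MLT germ cells against 0.520 in MLT germ cells (3668 and 492 UMIs), a log2 ratio of 0.63 (0.49 to 0.77). It was 1 of 7 members called higher, where 2.87% of the 15612 genes tested were, and 0 of 7 were called lower, where 8.17% were. The median log2 ratio was −0.07 over the members and −0.11 over all genes. The Syce3 ratio, 1.54-fold, lies close to the 1.5-fold border of the rule. With the same floor of 6923 UMIs in both libraries its level in MLT was 0.542 and the ratio 1.48-fold (log2 0.57), and with germ cells of 10000 or more UMIs the log2 ratio was 0.58; neither is called. With the same floor and germ cells with granulosa transcripts left out it was 1.62-fold and called higher. With the common floor alone 0 of 7 members were called, beside 3.98% of 15542 genes higher and 6.14% lower.

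Of the other members, Sycp3 stood at 7.96 per 10,000 in DEHP_MLT germ cells and 9.67 in MLT germ cells (log2 −0.28, −0.31 to −0.25). Syce2 stood at 4.66 and 3.99 (0.22, 0.17 to 0.27). Sycp2 had the widest interval (−0.42, −0.72 to −0.11), and its sign turned, to 0.55 (0.20 to 0.92), with equal weight per cell. It was 0.21 (−0.27 to 0.72) with germ cells chosen by Ddx4, Mael and Stk31. After thinning to 2000 UMIs it was 0.43 (−1.27 to 2.50), with the gene seen in 13 DEHP_MLT and 4 MLT germ cells. The last 2 intervals include 0. Sycp1 (−0.02), Syce1 (−0.10) and Tex12 (−0.07) were close to even. The intervals of Sycp3 and Syce2 lay on opposite sides of 0, and neither gene reached 1.5-fold. The Sycp3 value was 0.12 when each cell was thinned to 2000 UMIs, with an interval that includes 0 (−0.03 to 0.27).

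Within the growth bins the differences kept their signs for Syce3, Sycp3 and Syce2. The log2 ratio of DEHP_MLT over MLT for Syce3 was 0.50, 1.02 and 0.33 in the lowest, middle and highest bin, for Sycp3 −0.25, −0.40 and −0.28, and for Syce2 0.17, 0.29 and 0.14. Each library was cut at its own levels, so the bins are not the same stages. The 4 late prophase genes were also higher in DEHP_MLT germ cells. Tex101 stood at 0.296 per 10,000 in DEHP_MLT against 0.0952 in MLT (log2 1.64), Tsga8 at 0.640 against 0.269 (1.25), Ly6k at 0.169 against 0.0603 (1.49) and Taf7l at 0.332 against 0.186 (0.83). Ooep, the most abundant growth gene, stood at 9.84 against 13.4 (−0.45). Of the 14 growth genes, 10 had an interval below 0, Tle6 one above 0 (0.16), and 3, Zp1, Nlrp5 and Bmp15, intervals that included 0. The late prophase genes thus moved between the libraries in the direction of Syce3 and most growth genes the other way, and their part in its difference was not tested.

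**Figure D4:**
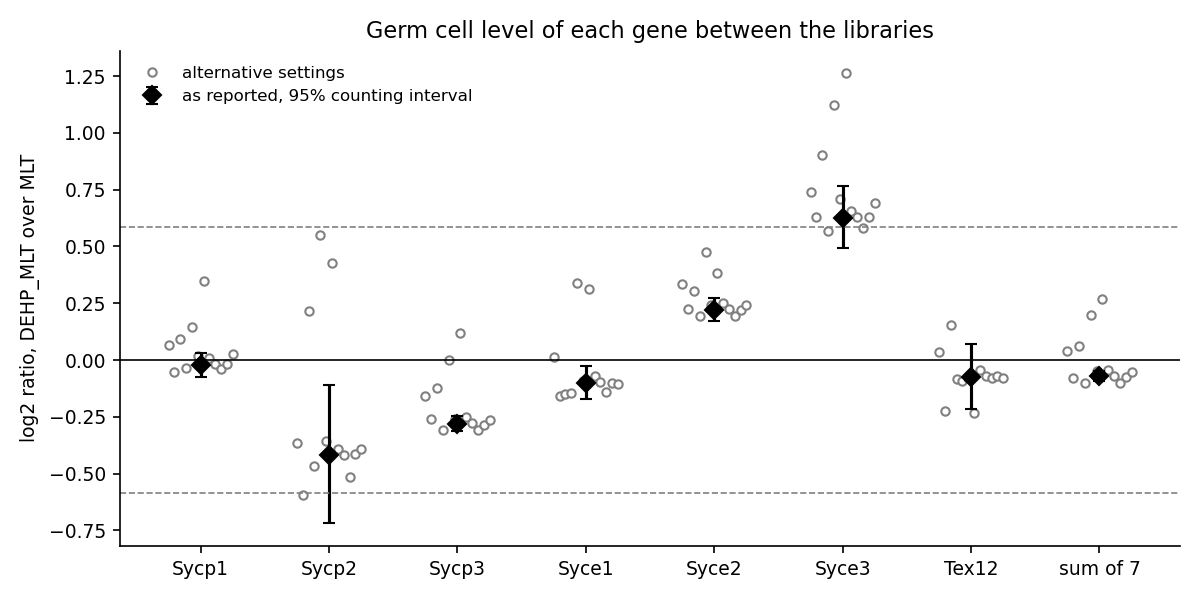
Log2 ratio of germ cell levels, DEHP_MLT over MLT, for each gene and for the sum of the 7. Black diamonds are the reported values with 95% counting intervals, grey circles are the same ratio under the alternative settings, and dashed lines mark 1.5-fold; Syce3 is above 0 throughout, from 0.57 to 1.26, and falls below the line in 2 of 12 settings.

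Somatic cells, pooled, carried the members at a low level with a common composition, apart from Syce2. The pool includes barcodes of clusters named germ cell that missed the germ cell rule. The surface epithelium cluster held 1340 of the 3328 somatic Sycp3 UMIs of DEHP_MLT. The unnamed MLT cluster of median 3093 UMIs held 628 of the 2666 of MLT. The part of these barcodes in the composition was not tested. For each 100 UMIs of Sycp3, germ cells of DEHP_MLT had 10.1 UMIs of Syce3 and somatic cells 10.1. In MLT the values were 5.38 in germ cells and 5.70 in somatic cells. Sycp1 had 44.8 in germ cells and 36.5 in somatic cells of DEHP_MLT, and 37.4 and 41.2 in MLT. Syce1 had 24.0 in germ cells and 24.5 in somatic cells of DEHP_MLT, and 21.1 and 24.8 in MLT. Syce2 had 58.5 in germ cells and 142 in somatic cells of DEHP_MLT, and 41.3 and 142 in MLT. Sycp1, Syce1, Syce3 and Tex12 (6.31 and 5.62, then 5.47 and 7.16) thus lay within 1.5-fold of their germ cell ratio to Sycp3 in somatic barcodes, Sycp2 was too sparse to tell (1.26 and 2.03 in somatic cells), and Syce2 stood well apart. The same was seen in where the UMIs lay: germ cells held 81.8% of the Syce2 UMIs of the DEHP_MLT library and 49.8% of those of MLT, while for the other members they held between 90.9% and 93.0% in DEHP_MLT and between 68.2% and 77.4% in MLT.

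Between the libraries, Syce3 was also higher in somatic cells, at 0.0468 per 10,000 in DEHP_MLT against 0.0215 in MLT (336 and 152 UMIs, log2 1.13, 0.85 to 1.41). It was again 1 of 7 members called higher, where 4.13% of 17838 genes were, and 0 of 7 were called lower, where 17.6% were. The median of all genes was −0.22 and of the members 0.28. Germ cells held 38.9% of all UMIs of the DEHP_MLT library and 11.8% of those of MLT; erythroid markers summed to 563 per 10,000 in somatic cells of DEHP_MLT and 65.98 in those of MLT. The part of free germ cell RNA and of erythroid cells in the difference was not tested.

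By the median over somatic clusters Syce2 again stood apart, but not in every cluster. The clusters were made without the members. In 9 named somatic clusters of DEHP_MLT and 10 of MLT, each of at least 50 cells, the median level of Sycp3 was 3.44% and 2.84% of its germ cell level, that of Sycp1 2.58% and 2.36%, and that of Syce1 3.90% and 2.83%. Syce2 had a median of 10.8% in DEHP_MLT and 14.3% in MLT. In DEHP_MLT erythroid cluster 5, however, Syce2 was at 4.47%, beside 4.74% for Syce1, 4.49% for Sycp3 and 4.41% for Sycp1. In MLT perivascular or smooth muscle cluster 9, Tex12 (6 UMIs) was at 12.5% and Syce2 at 9.91%. In DEHP_MLT all members were highest, apart from Syce2 and Sycp2, in the surface epithelium cluster, at 9.07% to 10.5%, close to each other. Surface epithelium cells of MLT did not share this, with Sycp3 at 2.30%, Sycp1 at 2.15% and Syce3 at 2.09%. The leading genes of the DEHP_MLT cluster also included Gng13 and Lgr5, and it met the naming rule for 4 granulosa markers. The unnamed MLT cluster of median 3093 UMIs had Sycp3 at 21.4% and Syce2 at 22.9% of the germ cell level in its 558 somatic barcodes.

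Syce2 was highest in both libraries in a stroma cluster led by Top2a and Mki67, genes of dividing cells (cluster 3 in the plot of somatic clusters). It stood there at 1.14 per 10,000 (1.06 to 1.23) in 336 DEHP_MLT cells and 1.19 (1.09 to 1.29) in 298 MLT cells, which is 24.5% and 29.7% of the germ cell level. Sycp3 in the same cells was at 3.06% and 2.14%. Gcdh, the gene opposite Syce2, stood at 0.0545 and 0.0632 in this cluster, below its 0.122 and 0.135 in all stroma cells. In DEHP_MLT, 290 erythroid cells led by Hemgn, Car2 and Klf1 had Syce2 at 1.03 (0.94 to 1.13), while 285 erythroid cells led by Tmcc2, Hba-a2 and Alas2 had 0.208 (0.156 to 0.272). Endothelial cells had among the lowest values, 7.06% in DEHP_MLT and 6.67% in MLT.

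**Figure D5:**
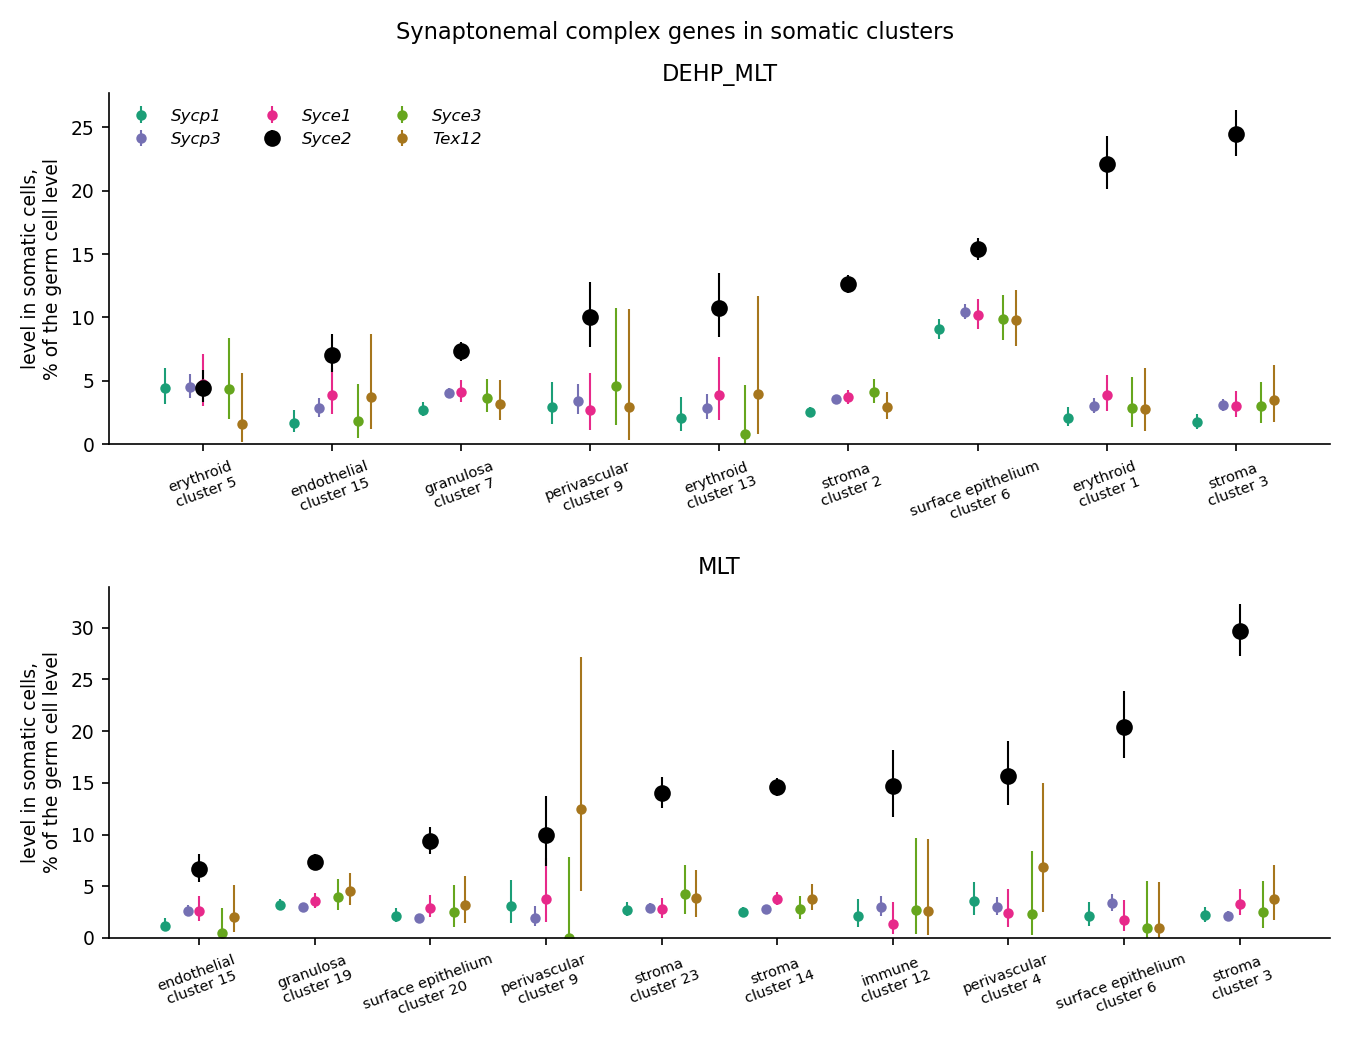
Level in each named somatic cluster as a percent of the germ cell level of the same library, for 6 of the genes (Sycp2, with few UMIs, is left out), in DEHP_MLT (top) and MLT (bottom), clusters in order of Syce2, with 95% counting intervals of the somatic level. Syce2 (large black points) reaches 24.5% and 29.7% in the stroma cluster led by Top2a and Mki67. The other genes shown lie there at 3.51% or less in DEHP_MLT and 3.71% or less in MLT.

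A split by UMIs of Mki67 or Top2a was chosen after the cluster values were seen. Syce2 was higher in stroma, granulosa and DEHP_MLT erythroid cells with such a UMI. In stroma and erythroid cells this set Syce2 apart from Sycp3 and Sycp1. In granulosa cells it did not set Syce2 apart in either library, as its interval overlapped that of each other member with a ratio. Sycp3, for example, had 0.22 (−0.08 to 0.52) in DEHP_MLT granulosa cells and 0.15 (−0.13 to 0.44) in those of MLT. In MLT endothelial cells the log2 ratio of Syce2 was 0.49 (−0.26 to 1.31), an interval that includes 0. Stroma cells with such a UMI had Syce2 at 0.945 per 10,000 and those without at 0.508 in DEHP_MLT, a log2 ratio of 0.89 (0.76 to 1.02). In MLT the values were 0.906 and 0.461 (0.97, 0.84 to 1.11). Erythroid cells of DEHP_MLT had 0.823 with and 0.245 without (1.75, 1.35 to 2.17), where Sycp3 had −0.33 and Sycp1 −0.13. Sycp3 in stroma had −0.29 in DEHP_MLT and −0.14 in MLT. Sycp1 in stroma had 0.14 and −0.41. In granulosa cells Syce2 had 0.60 (0.31 to 0.90) in DEHP_MLT and 0.32 (0.0399 to 0.61) in MLT, while Sycp1 had 0.65 (0.0799 to 1.23) and 0.0134 (−0.44 to 0.47). The cells with such a UMI were deeper, with a median of 14424 against 10514 UMIs in DEHP_MLT stroma and 12111.5 against 10144 in MLT stroma. The gap was wider in granulosa cells, at 36217.5 against 14814.5 in DEHP_MLT and 25621 against 15730 in MLT. Over the somatic clusters, among 4677 genes of at least 0.3 per 10,000, those most like Syce2 by the lower of the 2 libraries' Pearson r included Dnajc9 (0.898), Rpa2 (0.897), Rfc3 (0.892) and Prim1 (0.885). Rpa2, Rfc3 and Prim1 encode parts of the DNA replication machinery. These are values over 9 and 10 clusters that share their libraries.

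Most genes of a wider meiotic list were higher in germ cells too. It holds genes of meiotic synapsis, recombination and meiotic entry, among others, and the general germ cell genes Mael and Taf4b. Mael is also among the germ cell markers above, so its direction adds little. Of 41 listed, 40 were in both tables. In DEHP_MLT 36 of the 39 with enough UMIs were higher in germ cells and 1 lower, where 32.6% of all genes were higher and 40.1% lower. In MLT 31 of 36 were higher and 2 lower, where 27.6% and 38.8% of all genes were. The medians of the list were 3.30 in DEHP_MLT and 3.48 in MLT. The most abundant were Smc1b, a meiotic cohesin subunit, at 7.43 per 10,000 in DEHP_MLT and 8.63 in MLT germ cells, Mael, a piRNA pathway gene, at 1.69 and 1.64, Rec114, needed for meiotic DNA breaks, at 0.723 and 0.529, and Hsf2bp, a partner of BRCA2 in meiosis, at 0.586 and 0.770. Rec8, the meiotic kleisin of cohesin, was lower in germ than in somatic cells, at 0.0454 against 0.143 in DEHP_MLT and 0.0423 against 0.200 in MLT. The other gene lower in MLT was Sun1, a nuclear envelope protein that tethers telomeres.

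Between the libraries 0 of 39 were called higher in DEHP_MLT germ cells and 3 lower, where 2.87% of all genes were higher and 8.17% lower, so the count of lower genes is near the background. The median of the list was −0.20. Sycp2l, a paralog of Sycp2 expressed in oocytes, fell, at 0.0377 per 10,000 in DEHP_MLT against 0.118 in MLT (172 and 112 UMIs, log2 −1.65, −2.00 to −1.30). Hfm1, a crossover helicase, had −0.67 and Mlh3, a crossover nuclease subunit, −0.69. With the common UMI floor 5 of 39 were lower, with Mei1 and Ythdc2 added, where 6.14% of all genes were.

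Among 1633 genes of at least 1 per 10,000 in germ cells, those most like the summed members across single germ cells were Smc1b, with a lower r of 0.569 (0.569 in 701 DEHP_MLT cells and 0.605 in 124 MLT cells), Atp5f1 (0.533), Npm3 (0.528), Slc25a31 (0.527) and Fkbp6 (0.527). Slc25a31 encodes a germ cell form of the mitochondrial ADP/ATP carrier, and Fkbp6 a germ cell immunophilin needed for male meiosis in the mouse.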

How the data were processed

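Droplet libraries were made with the 10x Genomics 3′ assay, per the labels' protocols. For each library, a table of raw UMI counts was deposited by the authors, in whole numbers without any normalization; the submitters' processing notes name Cell Ranger, Seurat 4.2.0 and the mm9 build, with no strand setting given in the sources used here. The tables hold 117355739 UMIs in DEHP_MLT and 80657690 in MLT. A barcode was kept if it had 500 or more genes and no more than 20% of its UMIs from mitochondrial genes (4819 of 4819 and 5199 of 5277).

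UMIs were summed over the cells of each kind and library. Levels carry exact Poisson 95% intervals, shares exact Clopper-Pearson ones and ratios the interval of the exact binomial split. Genes with 20 or more UMIs in a comparison were tested against the 1.5-fold rule, with a floor of 3 counts per group for genes at 0. No doublet caller was run, and the cells must be taken to contain doublets. Cells were clustered with scanpy 1.11.5 (2000 variable genes without the members, 30 components, 15 neighbours, Leiden resolution 0.5 with igraph 0.11.9). A cluster was named from at least 3 markers, each in 25% of its cells and at least 1.0 higher on the log2 scale; this rule was set with the data in view, and names mean cells resembling that type. Sums and intervals were computed with scipy 1.17.1 and numpy 2.4.6 in Python 3.11.15, with pandas 2.3.3; figures were drawn with matplotlib 3.10.9. Promoter windows are RefSeq's on GRCm38.p6, another build than that of the counts.

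All 7 members are named; of the other meiotic genes, the 4 most abundant and those called; and the 5 genes most like the members. Of the genes most like Syce2 over somatic clusters, named after their values were seen, 1 is not reported here. The members and all lists were chosen with earlier results of these data known. Alternatives covered the germ cell rule, UMI floor, cell weights, thinning, granulosa transcripts, scaling and barcode filter.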

Additional observations from a re-analysis of the deposited data

How the results depend on the processing

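No paired analysis was possible because each group has 1 library. The ratio of germ to somatic cells was called higher for the sum and for each of the 7 genes under all 14 alternatives in both libraries. For the sum in DEHP_MLT (log2 3.72) it was 3.91 with the germ cell rule at 3 per 10,000, 2.40 at 10, 1.94 with Ddx4, Mael and Stk31 as the rule, 3.97 with equal weight per cell, 3.83 without germ cells with granulosa transcripts (with or without the common UMI floor), 4.05 after thinning, 3.68 without mitochondrial and ribosomal protein genes, 4.21 against somatic cells without a Dazl or Figla UMI, and 3.67 without erythroid clusters. In MLT (4.07) it was 3.48 at 10, 3.28 with the Ddx4 rule, 4.201 with the common floor, 3.52 with equal weight, 4.16 without granulosa transcripts, 4.27 with that and the common floor, 3.42 after thinning and 4.27 without a Dazl or Figla UMI. The rule at 10 and the Ddx4 rule move many of the reported germ cells into the somatic set: they leave 429 and 111 germ cells in DEHP_MLT and 142 and 95 in MLT.

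The sum between the libraries (DEHP_MLT over MLT, −0.07) was called under 0 of 12 alternatives, and its sign is not stable. It was 0.0412 with the rule at 3, 0.0621 with the Ddx4 rule, 0.20 with equal weight, 0.27 after thinning, −0.10 with the common floor and with 10000 or more UMIs, −0.0487 without granulosa transcripts and −0.0439 without mitochondrial and ribosomal protein genes. Equal weight and thinning give the shallow MLT barcodes more weight. Syce3 was called higher under 10 of 12 (0.57 to 1.26). Syce2 stayed above 0 under all 12 (0.19 to 0.48), Sycp3 ran from −0.31 to 0.12, and Sycp2 from −0.60, called lower with the rule at 10, to 0.55. Leaving out shared barcodes and 2 combined or subset settings were added after seeing the data, as was leaving out erythroid clusters. Depth limits Sycp2 most, with 116 UMIs in MLT germ cells.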
